A study of Mus musculus with 40 samples.

Results

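The 9 Toll-like receptor genes Tlr1, Tlr2, Tlr3, Tlr4, Tlr5, Tlr7, Tlr8, Tlr9 and Tlr13 and the adaptor gene Myd88 were followed in RNA of CD11b+ cells sorted from mouse brains with experimental gliomas. The genes were taken by symbol, 10 of the 54513 rows of each of 3 expression tables, and every member was found in every table. CD11b, the product of Itgam, marks microglia, monocytes, macrophages, neutrophils and some dendritic and NK cells. The study delivered the integrin-blocking peptide 7aaRGD into gliomas with osmotic pumps and profiled the sorted myeloid cells, at the later time also with PD-1 blockade.

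In the first table, male C57BL/6 mice with GL261 gliomas (a mouse glioma line, here tdTomato+luc+) received water (Vehicle), 7aaRGD or the control peptide 7aaRAE for 21 days, and naïve mice carried no tumor. It held 3 samples per group, each pooled from 2 animals. In the second table, with gliomas at 28 days post-implantation (DPI), mice received Vehicle (4 samples), 7aaRGD (4), the anti-PD-1 antibody (3) or 7aaRGD with anti-PD-1 (combination, 3), with 1 animal per sample. Mice without the antibody were given control IgG, and the antibody (10 mg/kg) was injected intraperitoneally 4 times, every other day from day 8 to day 14. The third table held CD11b+ cells from Athymic Nude-Foxn1nu mice with U87-MG gliomas (a human glioma line, here with RFP), 3 samples each of Vehicle, 7aaRGD and 7aaRAE at 21 DPI, again from 2 animals per sample. Nude mice lack a thymus and have few T cells. All mice were 10 to 12 weeks old, and both peptides were loaded at 2 mg/ml. 7aaRAE differs from 7aaRGD by a change of the integrin-binding RGD motif to RAE. The deposited labels call the 28 DPI mice nude, whereas the study's methods give C57BL/6 mice with GL261 cells, and they call GL261 a human line. In these 28 DPI samples the summed level of 7 T cell markers was 0.266 to 6.35 RPKM, against 0.0172 to 0.363 RPKM in the U87-MG samples. The naïve nude mice and the anti-PD-1 and combination samples numbered 4 were not analysed here.

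Levels are given as RPKM, read counts scaled by transcript length and library size. This scale corrects for gene length and so allows levels of different genes to be set side by side. The deposited values are not plain RPKM, as described with the processing below, so comparisons between genes are approximate. Fold changes were fitted with limma on log2(RPKM + 1) over protein-coding genes that averaged 1 RPKM or more, and adjusted p-values are Benjamini-Hochberg values over all genes tested, with a threshold of 0.05. Differences are log2 fold changes ± SE. The 3 tables were normalized separately, so levels of different tables are set side by side without a test. The sequencing depth behind the values is unknown, since no counts were among the files used.

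Toll-like receptors are innate sensors that read conserved molecules of microbes and of damaged cells. Tlr1, Tlr2, Tlr4 and Tlr5 sit mainly at the cell surface, where Tlr2 pairs with Tlr1 or Tlr6 to bind lipoproteins, Tlr4 senses lipopolysaccharide with Ly96 and Cd14, and Tlr5 senses flagellin. Tlr3, Tlr7, Tlr8, Tlr9 and Tlr13 sit in endosomes and belong to the nucleic acid-sensing receptors. The ligands are double-stranded RNA for Tlr3, single-stranded RNA for Tlr7, unmethylated CpG DNA for Tlr9 and bacterial ribosomal RNA for Tlr13. Myd88 couples every receptor of the list except Tlr3 to the Irak kinases and to NF-kB, while Tlr3 signals through Ticam1. In the brain, microglia are the main cells that carry these receptors, and monocytes and macrophages that enter gliomas carry them too.

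All 10 genes were expressed in all 35 samples, from 1.02 RPKM for Tlr5 in a U87-MG sample to 249.6 RPKM for Tlr2 in a 7aaRAE sample of the GL261 table. In naïve CD11b+ cells the endosomal receptors led. Tlr9 stood at 115 ± 8.42 RPKM (mean ± SD, n = 3) and Tlr7 at 111 ± 5.36, and their sample values overlapped. Tlr13 followed at 89.6 ± 4.46, Tlr2 at 72.9 ± 2.15 and Myd88 at 36.5 ± 0.307 RPKM. Tlr3, Tlr4, Tlr1 and Tlr5 came next, between 27.2 and 10.5 RPKM on average, and Tlr8 was lowest at 1.78 ± 0.315 RPKM. Tlr9 and Tlr7 were the only neighbors in the naïve order whose sample values overlapped.

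The order was different in the tumors. In Vehicle-treated GL261 gliomas at 21 DPI, Tlr2 was highest at 188 ± 28.4 RPKM, followed by Tlr9, Myd88, Tlr13 and Tlr7, and Tlr5 was lowest at 3.30 ± 0.676. Tlr8 stood above Tlr4, Tlr3 and Tlr5. In Vehicle-treated gliomas at 28 DPI, Tlr13 (100.1 ± 9.15 RPKM, n = 4), Tlr2 (95.1 ± 19.6) and Tlr7 (75.0 ± 8.90) led, and the sample values of neighbors in this order overlapped. In U87-MG gliomas with Vehicle, Tlr2 (124 ± 9.06 RPKM, n = 3), Tlr9 (82.6 ± 4.25) and Tlr13 (81.7 ± 7.33) led, and Tlr9 and Tlr13 overlapped. Tlr5 was the lowest member in all 10 tumor groups. Over the 11 groups, set side by side across tables, the mean level varied least for Tlr13, by 2.02-fold, and most for Tlr8, by 15.4-fold.

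**Figure D1:**
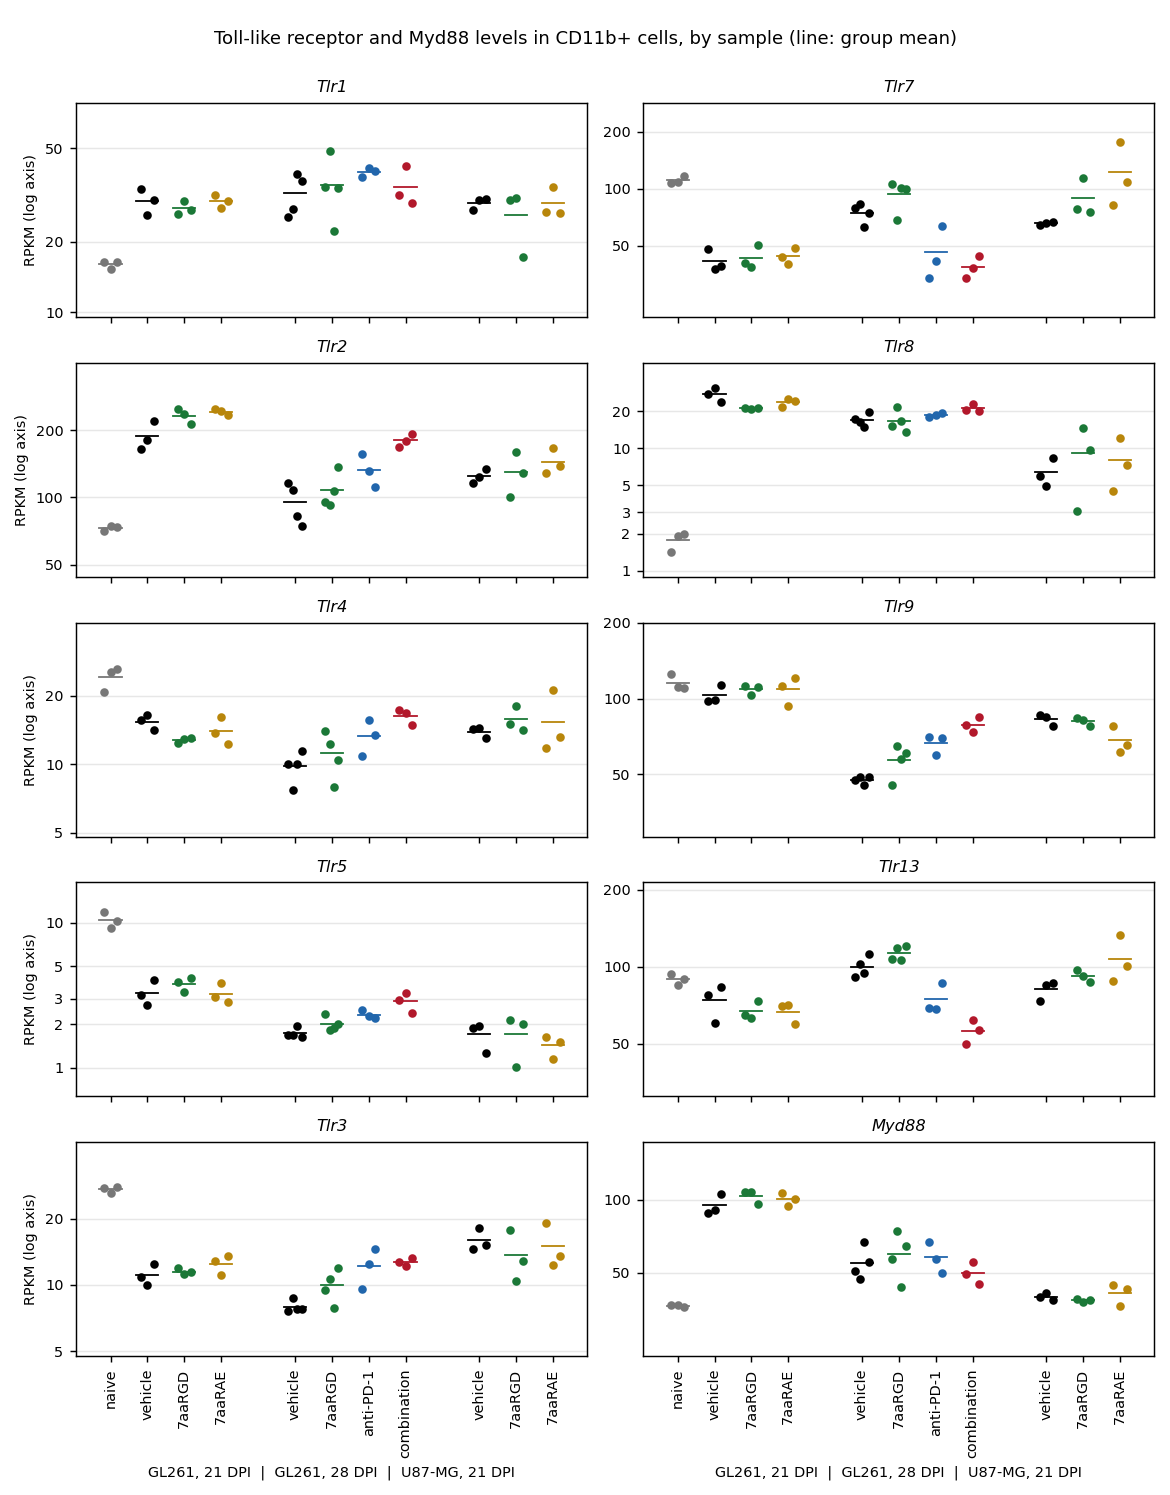
RPKM on a log axis for each of the 10 genes in each of the 35 samples, with 1 point per sample and a line at the group mean. Naïve samples stand apart from the tumor samples for Tlr8 (1.42 to 2.00 RPKM), Tlr5 and Tlr3, and Tlr7 and Tlr13 are low in the combination group.

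The comparison of Vehicle-treated GL261 gliomas with naïve brain asked how the receptor repertoire of CD11b+ cells differs in a tumor. Vehicle mice also had stereotactic surgery, a pump with a catheter and infusion of water into the tumor. The study's methods do not describe these for naïve mice. The glioma and the procedure therefore cannot be told apart in this comparison. Tlr8, Tlr2, Myd88 and Tlr1 were higher in the glioma samples, and Tlr5, Tlr7, Tlr3, Tlr4 and Tlr13 were lower, so 9 of the 10 members passed the test. This was a comparison in which 82.8% of the 9731 genes tested passed, 34.6% higher and 48.2% lower, so the count of members lay near the background. The same 9 members had groups that did not overlap, as did 85.4% of all genes. Fewer cells of a type and less RNA per cell cannot be told apart in such bulk samples.

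Tlr8 showed the largest difference of the members. It read 1.42, 1.92 and 2.00 RPKM in the naïve samples and 27.7, 31.0 and 23.7 RPKM with glioma. Every glioma sample was above every naïve sample, and the log2 fold change was 3.35 ± 0.115 (adjusted p = 7.65e-08). This was a larger change than that of 97.0% of the genes tested. On the plain RPKM scale the ratio of the means was 15.4. The fitted value is on the log2(RPKM + 1) scale, which understates the change of a gene at such low levels.

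Tlr2, the lipoprotein receptor, stood at 70.4, 74.3 and 74.0 RPKM in the naïve samples and at 165, 180.2 and 219.8 RPKM with glioma, a log2 fold change of 1.35 ± 0.101 (adjusted p = 4.74e-06). Myd88 was at 36.7, 36.8 and 36.2 RPKM in naïve samples and at 88.0, 90.9 and 105 RPKM with glioma, a log2 fold change of 1.35 ± 0.0733 (adjusted p = 7.29e-07). For both genes the 2 groups did not overlap, and the ratio of their means was 2.58 for Tlr2 and 2.59 for Myd88. Tlr1, a partner of Tlr2, went from 15.3 to 16.4 RPKM in naïve samples to 25.9 to 33.6 RPKM with glioma, a log2 fold change of 0.85 ± 0.0911 (adjusted p = 4.21e-05). Tlr1 and Tlr6 are close paralogs, and reads that fit both would be dropped by the mapping-quality filter of the authors, so the level of each is less certain than those of the other receptors.

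Tlr7, a sensor of single-stranded RNA, went the other way from Tlr8. Its level was 106.9, 109 and 117 RPKM in the naïve samples and 48.4, 37.6 and 39.2 RPKM with glioma, and it fell by 1.40 ± 0.0957 on the log2 scale (adjusted p = 2.72e-06). The groups did not overlap. The ratio of Tlr8 to Tlr7 RPKM was 0.0160 ± 0.00237 in naïve samples and 0.668 ± 0.138 with glioma, and the ratio of Tlr2 to Tlr7 was 0.657 ± 0.0248 and 4.60 ± 1.11.

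Tlr5, the flagellin receptor, was measured at 11.8, 9.21 and 10.3 RPKM in naïve samples and at 3.16, 2.71 and 4.04 RPKM with glioma, and fell by 1.42 ± 0.126 on the log2 scale (adjusted p = 1.27e-05). Tlr3 read 27.5, 26.3 and 27.8 RPKM in naïve samples and 10.9, 9.97 and 12.5 RPKM with glioma, and fell by 1.22 ± 0.0790 (adjusted p = 1.93e-06). Tlr4, the lipopolysaccharide receptor, read 20.9, 25.4 and 26.2 RPKM in naïve samples and 15.6, 16.5 and 14.2 RPKM with glioma, and fell by 0.61 ± 0.0943 (adjusted p = 0.000386). None of these 3 genes had overlapping groups. Together, the 4 surface receptors summed to 124 ± 3.70 RPKM in naïve samples and 237 ± 27.3 RPKM with glioma, whereas the 5 endosomal receptors summed to 345 ± 11.0 and 257 ± 18.3 RPKM. The surface receptors thus made up 26.4 ± 1.04% of the receptor RPKM in naïve cells and 47.9 ± 2.30% in glioma. Most of the surface sum was Tlr2, at 72.9 and 188.3 RPKM on average, and Tlr1 was also higher. Tlr4 and Tlr5 were lower, so the surface receptors did not move together. Tlr6, which is not a member, is not in these sums.

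Tlr13 and Tlr9 differed least. Tlr13 read 94.1, 85.1 and 89.7 RPKM in naïve samples and 77.9, 60.1 and 83.6 RPKM with glioma, a log2 fold change of -0.29 ± 0.116 (adjusted p = 0.0473). The call did not hold with TMM factors (adjusted p = 0.217), median-of-ratios factors (0.328) no filter on low levels (0.108) or all named genes in place of the protein-coding ones (0.0520), and was lost in 4 of 6 fits that left out 1 sample, namely Vehicle replicate 2 or any of the 3 naïve replicates. Without each of those its log2 fold change was between -0.32 and -0.15. Tlr9 read 125, 110.8 and 110.2 RPKM in naïve samples and 97.9, 98.3 and 113 RPKM with glioma, so the groups overlapped, and its log2 fold change of -0.16 ± 0.0804 did not pass (adjusted p = 0.0961). Without Vehicle replicate 3 Tlr9 passed at -0.23 on the log2 scale (adjusted p = 0.0185), and all 10 members were then called. Rescaling mattered here because the median of all genes tested lay at -0.143 on the log2 scale and moved to -0.0238 with TMM factors and to 0.00522 with median-of-ratios factors. The directions and calls of the other 8 members that passed were the same under both scalings.

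**Figure D2:**
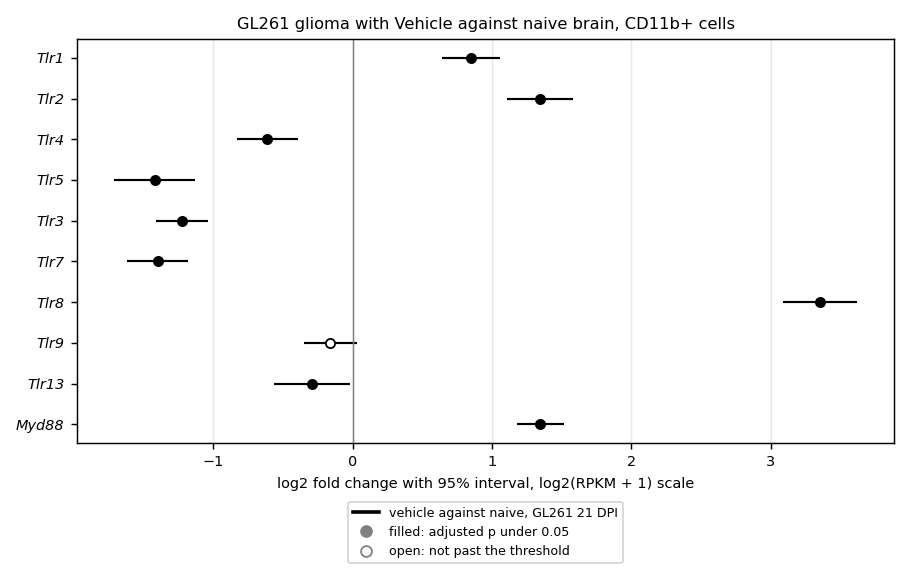
Log2 fold changes of the 10 genes with 95% intervals, Vehicle-treated GL261 gliomas against naïve brain at 21 DPI, with filled points for an adjusted p under 0.05. Tlr8 stands apart at 3.35, Tlr2 and Myd88 lie at 1.35, and the interval of Tlr9 (-0.35 to 0.03) includes 0.

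To show the promoters of members that differed most, the stretch before the transcription start was read from the RefSeq table on GRCm38.p6 for Tlr8, Tlr2 and Myd88, which were higher in glioma, and for Tlr5, which was lower. Bases that GENCODE marks as exonic were left out. Capitals mark matches, on either strand, to GAGGAA (the core bound by PU.1), to an interferon-stimulated response element (GAAA, 2 bases of any kind, GAAA) or to a loose form of the NF-kB site (GGG, 5 bases of any kind, CC).
Tlr8: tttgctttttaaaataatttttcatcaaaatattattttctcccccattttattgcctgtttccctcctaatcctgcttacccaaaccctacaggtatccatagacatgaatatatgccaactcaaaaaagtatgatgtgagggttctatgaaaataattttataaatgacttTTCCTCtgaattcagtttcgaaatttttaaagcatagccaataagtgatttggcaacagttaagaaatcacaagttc
Tlr2: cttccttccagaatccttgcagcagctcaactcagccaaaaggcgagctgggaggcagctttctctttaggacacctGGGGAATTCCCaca
Myd88: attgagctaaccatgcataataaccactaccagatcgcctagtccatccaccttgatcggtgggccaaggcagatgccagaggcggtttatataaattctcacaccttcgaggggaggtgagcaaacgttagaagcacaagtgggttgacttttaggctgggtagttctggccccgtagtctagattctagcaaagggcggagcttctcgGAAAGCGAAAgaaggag
Tlr5: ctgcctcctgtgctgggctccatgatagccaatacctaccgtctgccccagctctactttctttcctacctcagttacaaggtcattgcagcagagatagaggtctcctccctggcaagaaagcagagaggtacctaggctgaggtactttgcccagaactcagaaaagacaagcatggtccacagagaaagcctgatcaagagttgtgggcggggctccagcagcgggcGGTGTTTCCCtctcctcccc

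These stretches lie at chrX:167264330-167264579 on the minus strand, chr3:83841768-83841858 on the minus strand, chr9:119340042-119340268 on the minus strand and chr1:182954538-182954787 on the plus strand. Tlr8 held a GAGGAA match, read on the opposite strand as TTCCTC, and Myd88 held the interferon-type match. In the Tlr2 stretch the capitals are 2 overlapping matches to the NF-kB form, and Tlr5 held 1 such match close to its start. Among all 32851 windows of 300 bases in the table, 28.3% held GAGGAA, 3.4% the interferon-type element and 50.8% the loose NF-kB form. Of the 9 windows of the 8 members found in the table, 4 held GAGGAA, 1 held the interferon-type element and 3 held the NF-kB form. The AP-1 letters TGANTCA were in 1 of the 9 windows, that of Tlr9, against 7.8% of all windows, and the composite ETS-IRF element (GGAA, 2 bases of any kind, GAAA) was in 0 of 9 against 2.7%. Tlr4 and Tlr7 were not among the members found. These matches are descriptions of letters and were not tested for binding.

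The peptide comparisons at 21 DPI asked whether 7aaRGD changed the receptors of CD11b+ cells in GL261 gliomas, and whether the changed motif of 7aaRAE mattered. With limma, 0 of the 10 members passed for 7aaRGD against Vehicle, where 0.148% of the 9444 genes tested passed (14 genes), and 3 members had an unadjusted p under 0.05, against 13.6% of all genes. For 7aaRAE against Vehicle 0 members passed, as did 0% of all genes, and 1 member had an unadjusted p under 0.05, against 6.36% of all genes. Groups did not overlap for 2 members with 7aaRGD and 1 with 7aaRAE, against 17.6% and 12.6% of all genes.

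Tlr8 was at 21.4, 20.9 and 21.3 RPKM with 7aaRGD, below the 3 Vehicle samples (27.7, 31.0 and 23.7), and its log2 fold change was -0.35 ± 0.0951 (adjusted p = 0.195). Without Vehicle replicate 3 its log2 fold change was -0.45 (adjusted p = 0.0428), and 1 member then passed. Tlr8 with 7aaRAE read 21.5, 25.3 and 24.1 RPKM and overlapped with Vehicle. Tlr4 also lay below Vehicle in every 7aaRGD sample, at 12.5, 12.9 and 13.1 RPKM against 14.2 to 16.5, and its log2 fold change was -0.25 ± 0.0922 (adjusted p = 0.298).

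Tlr2 was at 248, 235 and 214 RPKM with 7aaRGD and at 249.6, 243 and 232 RPKM with 7aaRAE, against 165 to 219.8 RPKM with Vehicle. The 7aaRAE samples were all above Vehicle and the 7aaRGD samples overlapped with it. Its log2 fold changes were 0.31 ± 0.105 for 7aaRGD (adjusted p = 0.271) and 0.37 ± 0.105 for 7aaRAE (adjusted p = 0.718). Both peptides share the Vehicle samples, and neither difference passed.

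Marker sums are given beside these values in the order Vehicle, 7aaRGD and 7aaRAE. The homeostatic microglia sum was 1425 to 2066, 2127 to 2835 and 1847 to 2339 RPKM, so every 7aaRGD sample lay above every Vehicle sample. The monocyte and macrophage sum overlapped between the groups, at 7778 to 8714, 7290 to 8020 and 7542 to 8312 RPKM, as did the pan-myeloid sum, at 1033 to 1138, 996.4 to 1196 and 1055 to 1141 RPKM. The dendritic cell sum was 67.9 to 75.4, 84.5 to 98.2 and 70.2 to 92.5 RPKM and the T cell sum 1.22 to 6.21, 6.30 to 15.0 and 1.83 to 7.77 RPKM, and both were higher in every 7aaRGD sample than in any Vehicle sample. Sums overlapped for NK cells (4.45 to 14.8, 12.03 to 29.6 and 4.47 to 15.7 RPKM), neutrophils (55.9 to 182, 66.5 to 121 and 53.5 to 86.0) and plasmacytoid dendritic cells (7.52 to 10.7, 8.23 to 9.16 and 8.98 to 9.99). None of the tested genes of these lists passed for either peptide, where 0.148% of all genes did with 7aaRGD and 0% with 7aaRAE. No T cell marker was tested. The part of these cell types in the Tlr8, Tlr4 and Tlr2 values was not tested.

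This was 1 pair of peptides, compared in 2 tables, with p-values adjusted over all genes of each table. Compared directly at the same dose and time in GL261 gliomas, 7aaRGD and 7aaRAE did not differ past the threshold for any member, and 0% of all genes passed. The largest log2 differences of 7aaRGD from 7aaRAE were 0.19 for Tlr5 (95% interval -0.09 to 0.47) and -0.15 for Tlr8 (-0.36 to 0.06). For Myd88, Tlr9 and Tlr13 the differences lay between 0.00 and 0.05, with intervals from -0.27 to 0.29 at the widest. Intervals of this width do not show that the peptides act alike. No member had an unadjusted p under 0.05 here, against 5.52% of all genes, and 1 member, Tlr8, did not overlap between the peptides, against 11.4%.

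**Figure D3:**
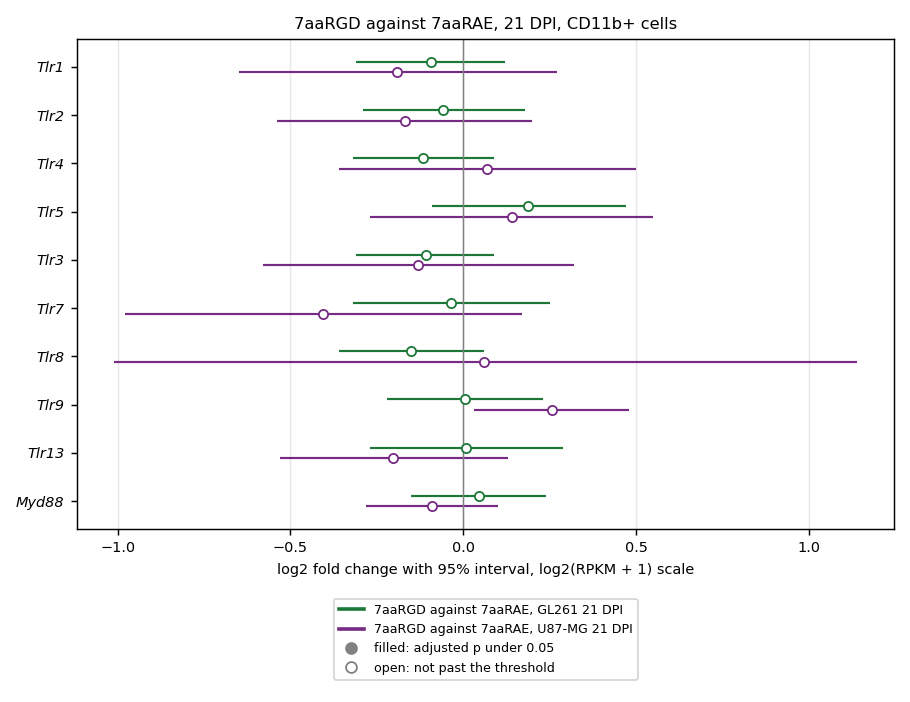
Log2 fold changes of 7aaRGD against 7aaRAE with 95% intervals for the 10 genes in GL261 and U87-MG gliomas at 21 DPI, with open points because no adjusted p was under 0.05. The GL261 intervals all include 0, the U87-MG interval of Tlr8 runs from -1.01 to 1.14, and that of Tlr9 (0.03 to 0.48) lies above 0.

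In U87-MG gliomas of nude mice, 0 of the 10 members passed for 7aaRGD against Vehicle, 7aaRAE against Vehicle or 7aaRGD against 7aaRAE. Of the 9668 genes tested, 0%, 0.0103% and 0% passed in these 3 comparisons. Unadjusted p-values under 0.05 were found for 0, 3 and 1 members, against 3.78%, 7.72% and 3.38% of all genes. Groups did not overlap for 2, 2 and 1 members, against 10.8%, 16.5% and 6.46% of all genes.

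Tlr7 was at 64.8, 65.7 and 66.5 RPKM with Vehicle, at 78.1, 113.8 and 75.8 RPKM with 7aaRGD and at 81.9, 177 and 109 RPKM with 7aaRAE. Every peptide sample was above every Vehicle sample, and in each peptide group the second sample was the highest. The log2 fold changes were 0.41 ± 0.255 for 7aaRGD (adjusted p = 0.941) and 0.82 ± 0.255 for 7aaRAE (adjusted p = 0.496). Tlr13 followed the same order of samples in the 7aaRAE group, at 88.3, 134 and 100.8 RPKM against 73.3 to 86.8 with Vehicle, and its log2 fold change was 0.38 ± 0.145 (adjusted p = 0.568). Without the second 7aaRAE sample the log2 fold changes with 7aaRAE were 0.52 for Tlr7 (adjusted p = 0.920) and 0.21 for Tlr13 (adjusted p = 0.999). Tlr13 with 7aaRGD, at 86.9 to 97.3 RPKM, lay just above the highest Vehicle sample. Tlr9 with 7aaRAE read 77.9, 61.2 and 65.7 RPKM against 85.7, 84.4 and 77.8 with Vehicle and 84.0, 82.4 and 77.9 with 7aaRGD. For Tlr9 the 7aaRAE samples overlapped narrowly with Vehicle and lay narrowly below the lowest 7aaRGD sample. The log2 difference of 7aaRGD from 7aaRAE was 0.26 ± 0.0994 (95% interval 0.03 to 0.48, adjusted p = 0.9999).

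Tlr8 varied most between samples of this table. It was at 5.92, 4.86 and 8.34 RPKM with Vehicle, at 3.07, 14.7 and 9.63 RPKM with 7aaRGD and at 4.46, 12.2 and 7.30 RPKM with 7aaRAE, and the 3 groups overlapped. The summed level of 10 monocyte and macrophage markers in the same 7aaRGD samples was 1467, 3986 and 2779 RPKM, in the same order as Tlr8. In the 7aaRAE samples it was 1317, 2424 and 1630 RPKM, again in the order of Tlr8. In the Vehicle samples it was 1569, 1949 and 2676 RPKM, and there the lowest Tlr8 value was not in the sample with the lowest sum. The summed level of 10 homeostatic microglia markers was 9984, 11210 and 8988 RPKM in the Vehicle samples. It was 11430, 6834 and 9242 RPKM with 7aaRGD and 9462, 7591 and 8666 RPKM with 7aaRAE. In each of the 3 groups this order was the reverse of that of Tlr8. The part of these markers in the Tlr8 values was not tested. Myd88 stayed between 36.5 and 44.3 RPKM in the 9 samples, and Tlr5 between 1.02 and 2.15 RPKM.

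At 28 DPI the treatments were compared with Vehicle-treated GL261 gliomas to ask what PD-1 blockade, 7aaRGD and their combination did to CD11b+ cells. With the combination, Tlr2, Tlr9, Tlr4, Tlr3 and Tlr5 were higher and Tlr7 and Tlr13 were lower, 7 of 10 members, where 43.3% of the 9740 genes tested passed (17.5% higher and 25.7% lower). With anti-PD-1, Tlr3, Tlr9 and Tlr5 were higher and Tlr7 and Tlr13 lower, 5 of 10 members against 23.1% of all genes (10.8% higher and 12.2% lower). With 7aaRGD alone 0 members passed in limma, against 0.647% of all genes, and 2 members had an unadjusted p under 0.05, against 14.6%. Groups did not overlap for 8 members with the combination, 4 with anti-PD-1 and 0 with 7aaRGD, against 48.8%, 32.4% and 8.02% of all genes. The 3 comparisons share the Vehicle samples. Among all genes the share of calls that were higher in the combination was 40.5% and became 50.8% with TMM factors, while the 7 members kept their directions and calls.

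Tlr2 stood at 115, 107.8, 82.6 and 74.6 RPKM with Vehicle and at 168, 179 and 192 RPKM with the combination. The groups did not overlap, and the log2 fold change was 0.93 ± 0.168 (adjusted p = 0.000700). With anti-PD-1 alone Tlr2 was at 157, 131 and 112 RPKM, overlapping with Vehicle, and its log2 fold change of 0.49 ± 0.168 missed the threshold narrowly (adjusted p = 0.0501). With 7aaRGD alone it was at 95.5, 92.2, 107 and 137 RPKM (log2 fold change 0.19 ± 0.155, adjusted p = 0.601).

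Tlr4 read 10.1, 7.71, 10.1 and 11.4 RPKM with Vehicle and 17.4, 16.8 and 14.9 RPKM with the combination, without overlap, a log2 fold change of 0.69 ± 0.167 (adjusted p = 0.00476). With anti-PD-1 its log2 fold change was 0.41 ± 0.167 (adjusted p = 0.0968). Tlr5 read 1.69, 1.70, 1.95 and 1.63 RPKM with Vehicle, 2.49, 2.29 and 2.20 RPKM with anti-PD-1 and 2.94, 3.31 and 2.38 RPKM with the combination. Both treated groups lay above Vehicle, with log2 fold changes of 0.28 ± 0.0891 (adjusted p = 0.0376) and 0.49 ± 0.0891 (adjusted p = 0.000719). With no filter on low levels the anti-PD-1 call of Tlr5 was lost (adjusted p = 0.0649). Tlr1, the remaining surface receptor, overlapped between all 4 groups, between 22.2 and 48.7 RPKM.

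Of the endosomal receptors, Tlr9 was at 47.7, 48.7, 45.3 and 48.9 RPKM with Vehicle, at 70.1, 59.5 and 69.7 RPKM with anti-PD-1 and at 78.6, 73.4 and 84.6 RPKM with the combination. The 3 groups did not overlap, and the log2 fold changes were 0.47 ± 0.106 (adjusted p = 0.00696) and 0.71 ± 0.106 (adjusted p = 0.000168). Tlr3 read 7.60, 8.76, 7.76 and 7.77 RPKM with Vehicle, 9.54, 12.4 and 14.6 RPKM with anti-PD-1 and 12.7, 12.2 and 13.2 RPKM with the combination. Every treated sample was above every Vehicle sample, with log2 fold changes of 0.54 ± 0.132 (adjusted p = 0.0108) and 0.61 ± 0.132 (adjusted p = 0.00237).

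Tlr7 and Tlr13 moved the other way. Tlr7 read 79.0, 83.6, 62.9 and 74.4 RPKM with Vehicle, 33.6, 41.7 and 63.5 RPKM with anti-PD-1 and 33.7, 38.4 and 44.3 RPKM with the combination. The combination lay wholly below Vehicle and 1 anti-PD-1 sample overlapped with it. Tlr7 fell by 0.73 ± 0.196 on the log2 scale with anti-PD-1 (adjusted p = 0.0178) and by 0.93 ± 0.196 with the combination (adjusted p = 0.00197). Tlr13, the ribosomal RNA sensor, read 91.4, 102.6, 94.6 and 112 RPKM with Vehicle, 68.9, 68.2 and 86.7 RPKM with anti-PD-1 and 49.7, 62.0 and 56.5 RPKM with the combination. Its 3 groups did not overlap, and it fell by 0.42 ± 0.103 (adjusted p = 0.0106) and 0.83 ± 0.103 (adjusted p = 4.73e-05). The ratio of Tlr2 to Tlr7 RPKM was 1.27 ± 0.192 with Vehicle, 3.18 ± 1.45 with anti-PD-1 and 4.66 ± 0.322 with the combination.

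Tlr8 and Myd88 did not pass in either comparison. Tlr8 read 17.2, 16.4, 14.9 and 19.5 RPKM with Vehicle and 20.3, 23.1 and 20.2 RPKM with the combination, just above the highest Vehicle sample (log2 fold change 0.31 ± 0.124, adjusted p = 0.0612). This value passed with TMM factors (adjusted p = 0.0395), median-of-ratios factors (0.0337), only the compared groups in the fit (0.0299) and without Vehicle replicate 4 (adjusted p = 0.0367). Myd88 lay between 43.6 and 74.2 RPKM in the 14 samples and overlapped between all groups. The anti-PD-1 calls rested on few samples: 2 members passed without anti-PD-1 replicate 2 and 3 without anti-PD-1 replicate 1, and up to 5 when another sample was left out. Of the 5 members, Tlr9 passed in all 7 such fits, Tlr3 and Tlr13 in 6, Tlr7 in 5 and Tlr5 in 1. The call was lost without anti-PD-1 replicate 3 for Tlr3, without replicate 2 for Tlr13, without replicate 1 or 2 for Tlr7, and for Tlr5 without any sample except Vehicle replicate 3. Tlr2 passed without anti-PD-1 replicate 3, Vehicle replicate 1 or Vehicle replicate 2. For the combination 7 or 8 members passed whichever sample was left out.

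**Figure D4:**
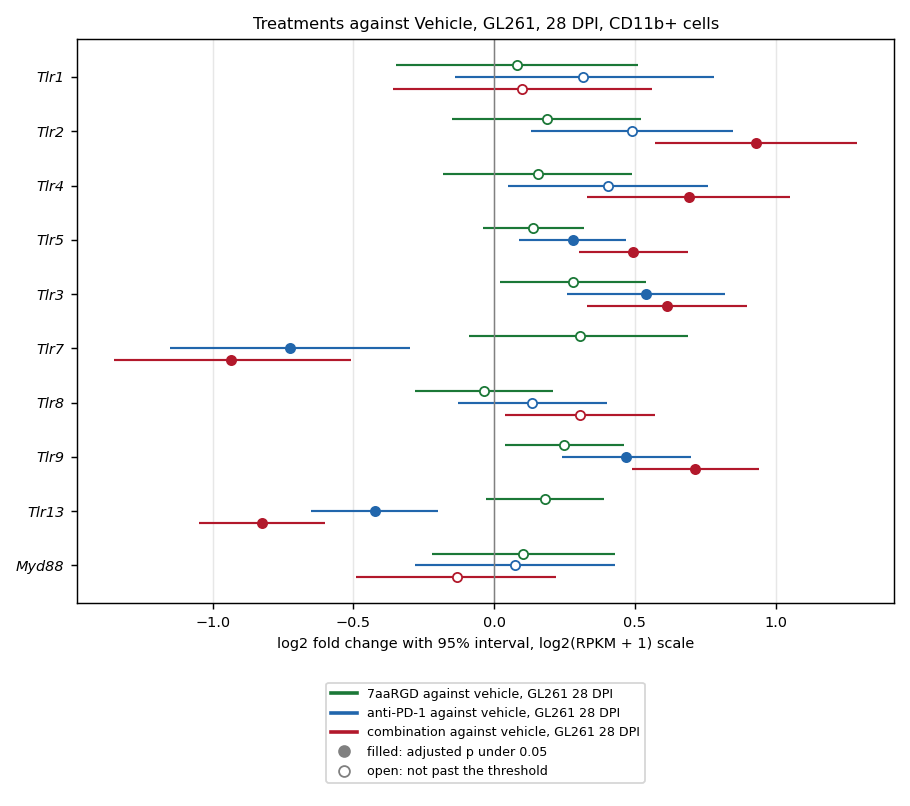
Log2 fold changes of the 10 genes against Vehicle with 95% intervals, for 7aaRGD, anti-PD-1 and the combination in GL261 gliomas at 28 DPI, with filled points for an adjusted p under 0.05. Tlr7 and Tlr13 lie below 0 with anti-PD-1 and with the combination, and the combination value of Tlr2 is 0.93.

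The difference between the combination and anti-PD-1 alone was tested directly. In limma 0 of the 10 members passed, where 0.0411% of all genes passed (4 genes), and 4 members had an unadjusted p under 0.05, against 15% of all genes. Tlr13 was lower in every combination sample than in every anti-PD-1 sample, and its log2 fold change was -0.40 ± 0.111 (adjusted p = 0.117). Tlr2 was higher in every combination sample, and its log2 fold change was 0.44 ± 0.179 (adjusted p = 0.273). Tlr9 and Tlr8 were likewise without overlap, so 4 members separated in all, where 21.5% of all genes did.

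Against 7aaRGD alone, the combination had Tlr2, Tlr9, Tlr4, Tlr5 and Tlr8 higher and Tlr7 and Tlr13 lower, 7 of 10 members, where 36.6% of all genes passed (13% higher and 23.5% lower). Groups did not overlap for 7 members, against 40.4% of all genes. The share of calls that were higher was 35.6% over all genes and 51.1% with TMM factors, under which Tlr3 passed too (adjusted p = 0.0339). Tlr13 read 107, 118, 106.8 and 121 RPKM with 7aaRGD and fell by 1.01 ± 0.103 on the log2 scale in the combination (adjusted p = 3.14e-05). Tlr7 read 105.5, 68.2, 101 and 99.7 RPKM with 7aaRGD and fell by 1.24 ± 0.196 (adjusted p = 0.000452). For both genes the 2 groups did not overlap. The calls for Tlr8 (log2 fold change 0.34 ± 0.124, adjusted p = 0.0458) and Tlr4 (0.53 ± 0.167, adjusted p = 0.0233) were lost in 6 of 7 and 3 of 7 fits that left out 1 sample. The libraries in question were, for Tlr4, combination replicates 1 and 2 and 7aaRGD replicate 3, and for Tlr8 all except 7aaRGD replicate 2. The Tlr8 call was also lost with no filter on low levels (adjusted p = 0.0719) and with only the compared groups in the fit (adjusted p = 0.0932).

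The interaction term asked whether 7aaRGD and anti-PD-1 together differed from the sum of their separate differences. In limma 0 members and 0% of all genes passed, and 1 member had an unadjusted p under 0.05, against 8.14% of all genes. That member was Tlr13, with an interaction of -0.58 ± 0.146 on the log2 scale (adjusted p = 0.588). Tlr13 was 100.1 RPKM on average with Vehicle, 113 with 7aaRGD, 74.6 with anti-PD-1 and 56.1 with both. The interaction of Tlr7 was -0.51 ± 0.277 (adjusted p = 0.642).

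Markers of the cell types a CD11b sort can hold are given beside these results. Against naïve brain, all 10 homeostatic microglia markers were lower in Vehicle-treated GL261 gliomas and all 10 monocyte and macrophage markers were higher. Of all genes tested in this comparison, 48.2% were lower and 34.6% higher. The microglia markers summed to 17010 to 17690 RPKM in naïve samples and to 1425 to 2066 RPKM with glioma, and the monocyte and macrophage markers to 426 to 469 and 7778 to 8714 RPKM. In naïve cells Vcan and Arg1, of the latter list, were under 0.1 RPKM. Of the neutrophil list 6 of 7 genes were tested, 1 higher and 3 lower, and the sums were 238 to 342 RPKM in naïve samples and 55.9 to 182 RPKM with glioma. The 4 pan-myeloid genes, Itgam among them, summed to 3293 to 3368 and 1033 to 1138 RPKM, with 2 higher and 2 lower. Dendritic cell markers summed to 14.2 to 16.8 and 67.9 to 75.4 RPKM, with 3 of 4 tested higher. The sums were 1.93 to 3.03 and 7.52 to 10.7 RPKM for plasmacytoid dendritic cells (1 tested, higher) and 0.199 to 0.466 and 4.45 to 14.8 for NK cells (1 tested, higher). T cell markers summed to at most 0.251 RPKM in naïve samples and to 1.22 to 6.21 RPKM with glioma, with 0 tested. The 7 T cell markers were each under 0.1 RPKM in naïve samples. The part of these cells in the receptor differences was not tested.

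At 28 DPI the monocyte and macrophage sum was 4101 to 5124 RPKM with Vehicle, 3716 to 4801 with 7aaRGD, 5958 to 7983 with anti-PD-1 and 6719 to 9066 with the combination, and 5 of its 10 genes passed as higher in each of the antibody groups. The microglia sum was 1678 to 2341, 1953 to 3384, 1884 to 2697 and 2519 to 2681 RPKM in the same order of groups, with 6 of 10 genes higher in the combination, 2 with anti-PD-1 (Cx3cr1 and Olfml3) and 1 with 7aaRGD (Cx3cr1). The 4 pan-myeloid genes summed to 965.5 to 1238, 1067 to 1376, 1134 to 1336 and 1262 to 1394 RPKM, with Itgam, Ptprc and Aif1 higher in the combination, Ptprc higher with anti-PD-1 and 0 called with 7aaRGD. The NK cell sum was 1.80 to 7.96, 1.24 to 7.37, 1.48 to 46.0 and 16.9 to 60.3 RPKM, with 3 of 4 genes tested higher in the combination and 0 with anti-PD-1. Dendritic cell markers summed to 1.90 to 3.97, 1.57 to 4.18, 4.45 to 18.5 and 14.2 to 17.5 RPKM, with 2 of 2 tested higher in both antibody groups and Xcr1 under 0.1 RPKM throughout. The neutrophil sums overlapped, at 149 to 314, 53.1 to 277, 155 to 276 and 79.8 to 192 RPKM, with 1 gene, Retnlg, lower in the combination. Plasmacytoid dendritic cell markers summed to 3.41 to 5.402, 3.31 to 4.39, 5.48 to 8.63 and 4.88 to 6.40 RPKM, and the 1 gene tested, Cox6a2, was higher with anti-PD-1. The T cell sums were 0.852 to 2.12, 0.266 to 1.58, 1.095 to 5.76 and 4.08 to 6.35 RPKM, with 0 tested. Of all genes tested, 17.5% were higher and 25.7% lower in the combination, 10.8% and 12.2% with anti-PD-1, and 0.647% passed with 7aaRGD. Anti-PD-1 replicate 3, whose Tlr7 overlapped with Vehicle, had the lowest NK, dendritic and T cell sums of its group. These were 1.48, 4.45 and 1.095 RPKM. Its monocyte and macrophage sum, 5958 RPKM, was above that of every Vehicle sample. The part of these cell types in the receptor values at 28 DPI was not tested.

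**Figure D5:**
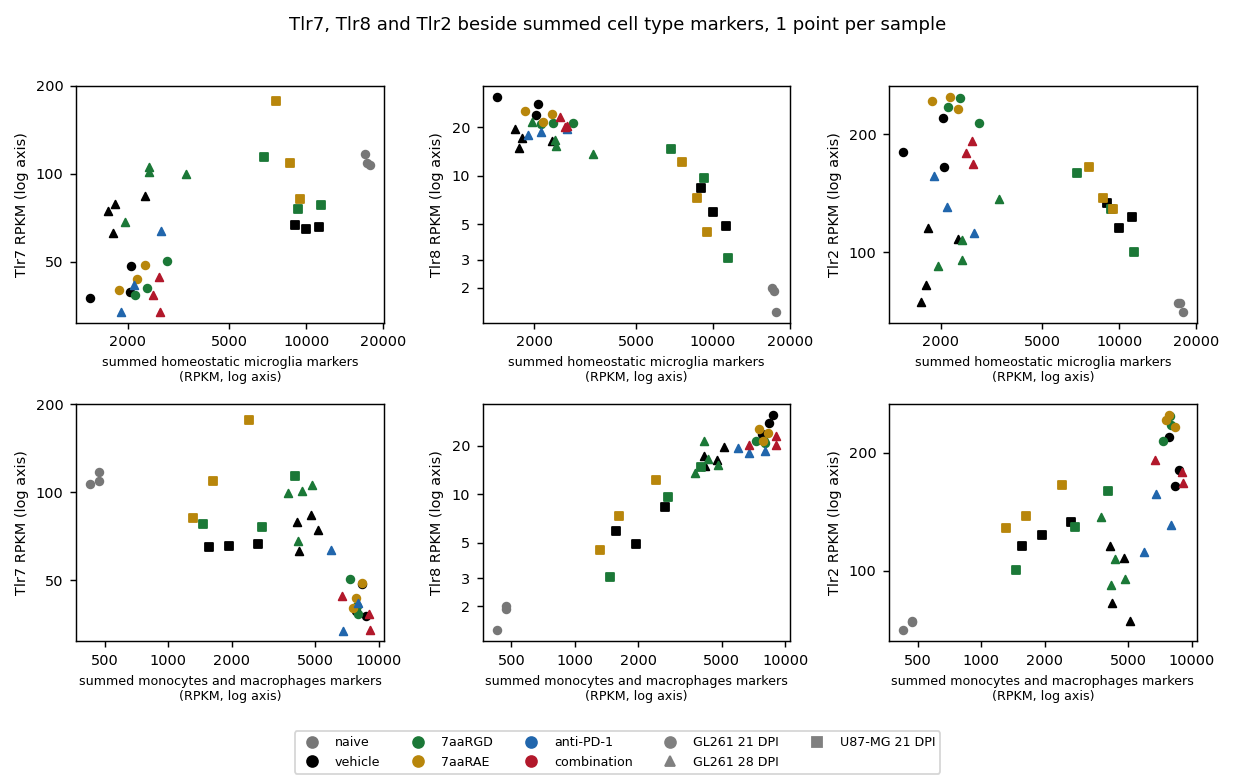
RPKM of Tlr7, Tlr8 and Tlr2 in each of the 35 samples against the summed RPKM of 10 homeostatic microglia markers (top) or 10 monocyte and macrophage markers (bottom), all axes log, with color for group and shape for table. Naïve samples have the highest microglia sums (17010 to 17690 RPKM) and the lowest Tlr8, and samples of different tables were normalized separately.

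Around the receptors, 49 other genes of the pathway were taken as a list. Against naïve brain 44 were tested, 20 were higher and 18 lower in Vehicle-treated gliomas, against the 82.8% of all genes that passed, and the median log2 fold change was 0.04 where that of all genes was -0.14. The inflammatory target genes were higher, 8 of 8 tested, including the chemokine Cxcl10 (log2 fold change 6.81 ± 0.137), the cytokine Il1b (4.68 ± 0.0783), the nitric oxide synthase Nos2 (4.56 ± 0.414) and the prostaglandin synthase Ptgs2 (3.88 ± 0.141). The transcription factor Irf7, which acts below the nucleic acid sensors, was higher by 6.57 ± 0.1096. Irak3, an inhibitor of Irak signaling, was higher by 1.78 ± 0.0714. The adjusted p-values of these 6 genes were between 4.36e-09 and 1.49e-05.

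Of the 9 accessory proteins tested, 8 were lower and 1, the scavenger receptor Cd36, was higher (1.76 ± 0.166, adjusted p = 1.85e-05), in a comparison in which 82.8% of all genes passed and 48.2% were lower. Unc93b1, which carries the endosomal receptors out of the endoplasmic reticulum, fell by 0.59 ± 0.0688 on the log2 scale, the chaperones Cnpy3 and Hsp90b1 by 0.74 ± 0.0549 and 0.63 ± 0.0551, and the endosomal transporter Slc15a4 by 1.22 ± 0.111. Among adaptors and kinases 6 of 16 were higher and 6 lower, with Ticam2 and Tab2 falling by 0.83 ± 0.0637 and 0.86 ± 0.0640. Cd14, Ly96, Ticam1 and Tlr6 were also lower, with log2 fold changes of -0.29, -0.35, -0.26 and -0.49 (adjusted p between 0.000149 and 0.0347), and Tirap did not pass (0.05, adjusted p = 0.534). With TMM factors Ly96 (-0.23, adjusted p = 0.114) and Ticam1 (-0.13, adjusted p = 0.0834) did not pass and Cd14 did narrowly (-0.15, adjusted p = 0.0485). With median-of-ratios factors Cd14 did not pass either (-0.12, adjusted p = 0.141), and the direction stayed the same in each case.

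In the combination at 28 DPI 45 genes of the list were tested, 14 were higher and 4 lower than with Vehicle, against 43.3% of all genes, with a median log2 fold change of 0.13 beside -0.05 for all genes. Nos2 (3.60 ± 0.275, adjusted p = 1.35e-06), Ptgs2 (2.604 ± 0.374), Tnf (1.51 ± 0.325), Il1b (1.40 ± 0.350) and Cxcl10 (1.18 ± 0.304) were the 5 with the largest increase. Tab1 fell by 0.75 ± 0.114, Irak1 by 0.42 ± 0.0537, Irak2 by 0.32 ± 0.0808 and Tollip, an inhibitor of Irak1, by 0.23 ± 0.0638. The adjusted p-values of these 9 genes were at most 0.0113. With anti-PD-1 alone 12 were higher and 2 lower of 45 tested, against 23.1% of all genes (10.8% higher and 12.2% lower), among them Nos2 (2.35 ± 0.275), Tnf (1.11 ± 0.325), Cxcl10 (0.92 ± 0.304), Cd180, a relative of Tlr4 (0.72 ± 0.108), and Hsp90b1 (0.69 ± 0.121) as higher, and Irak2 and Irak1 as lower by 0.33 ± 0.0808 and 0.17 ± 0.0537. Against 7aaRGD alone the combination had 14 higher and 5 lower of 45 tested, against 36.6% of all genes (13% higher and 23.5% lower). Tlr6, Cd14, Ly96, Unc93b1, Ticam1 and Tirap passed in none of the comparisons at 28 DPI. None of the list passed for 7aaRGD or 7aaRAE in any table, for the combination against anti-PD-1 or for the interaction.

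The genes whose pattern over samples was most like that of a member were found among 9073 protein-coding genes that averaged 1 RPKM or more in every table, by the lowest of the 3 Pearson correlations over the 12, 14 and 9 samples of the tables. The members themselves were left out. These values are descriptions, samples of a group share their treatment, and in the first table the naïve samples stand apart from the rest. Nhlrc3 was nearest to Tlr7 (lowest r = 0.938), P4ha1 to Tlr5 (0.912), Ticam2 to Tlr4 (0.896), Rgmb to Tlr3 (0.893), Cpeb2 to Tlr13 (0.860) and Bcl6 to Tlr2 (0.851). Ogfrl1 was among the 3 nearest of both Tlr7 (0.927) and Tlr13 (0.840). Lower values were found for the nearest genes of Tlr8 (Myo9b, 0.782), Myd88 (Il4ra, 0.762), Tlr1 (Tmem126a, 0.705) and Tlr9 (Traf2, 0.701).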

How the data were processed

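RNA of CD11b+ cells was sequenced by the authors from stranded poly(A) libraries, trimmed with Trimmomatic, aligned with STAR to mm10 and counted with HTSeq 0.11.1 in reverse-stranded mode, with a mapping-quality filter. The deposited values were read as RPKM with a constant of 2 added, which was subtracted here, and values below it were set to 0. Of the values other than the constant, 6.6% to 18.0% per sample lay below it, so they are not plain RPKM. The smallest independent direction of variation within groups held 0.0402% at 21 DPI with GL261, against 7.13% in the next. At 28 DPI these were 0.0359% and 6.08%, and with U87-MG 5.01% and 8.85%. If a component was removed before deposit, SEs and p-values of the GL261 samples would be too small. This was not tested. Of 54513 rows, 98.9% matched an annotated gene and 21907 were protein-coding. Of 40 labelled samples 35 had a column, and no 2 columns were identical. Since the depth is unknown, no interval of counting error could be given. Where animals were pooled, p-values measure the spread between pools.

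log2(RPKM + 1) was fitted with limma 3.58.1 in R 4.3.3 (moderated test with an intensity trend, two-sided) for protein-coding genes averaging 1 RPKM or more, with Benjamini-Hochberg adjustment over all genes tested and a threshold of 0.05. Vehicle against naïve used those 2 groups, and other comparisons used the treated groups of their table. The fit was tested on simulated data. The alternatives were other pseudocounts, filters, scalings (TMM or median-of-ratios factors from the RPKM values), gene classes, a replicate block, other samples in the fit and leaving out each sample. The text names the 10 members, up to 5 pathway genes per direction with the largest change, and Tlr6, Cd14, Ly96, Unc93b1, Ticam1 and Tirap; other pathway genes were chosen after their values were seen. Members and lists were chosen with earlier results of these data known. Promoters came from RefSeq on GRCm38.p6. The result of 1 marker list is not reported here.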

Additional observations from a re-analysis of the deposited data

Results flagged for a closer look

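In groups of 4 samples, 2 values stood apart from the others of their group by Dixon's criterion. The highest Tlr3 value in the Vehicle group at 28 DPI was 8.76 RPKM, against 7.60 to 7.77 RPKM in the others, and the lowest Tlr7 value in the 7aaRGD group at 28 DPI was 68.2 RPKM, against 99.7 to 105.5 RPKM. Chance marks about 1 in 20 groups tested in this way, and 20 combinations of a gene and a group were tested.

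For some members every sample of one comparison moved one way and every sample of another the opposite way, relative to the mean of the Vehicle samples. The log2 fold change of Tlr4 with 7aaRGD was -0.25 in GL261 gliomas at 21 DPI and 0.16 in U87-MG gliomas. That of Tlr13 with 7aaRGD was -0.13 in GL261 gliomas at 21 DPI, 0.18 at 28 DPI and 0.17 in U87-MG gliomas, and with 7aaRAE it was -0.13 in GL261 and 0.38 in U87-MG gliomas. Myd88 with 7aaRGD was at 0.13 in GL261 and -0.044 in U87-MG gliomas. None of these values passed the threshold in its own table. Chance can also put every sample of a small group on the same side of a mean, and how often was not estimated. The highest 7aaRGD value of Tlr13 in GL261 gliomas at 21 DPI, 73.6 RPKM, lay just below the Vehicle mean of 73.9 RPKM. The difference between tables was not tested, since the tables were normalized separately.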

How the results depend on the processing

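Over 47 results on members with an unadjusted p under 0.05 and 778 alternative values, 734 kept their direction and side of the threshold, 32 lost a call, 12 gained one and 0 changed direction. Results taken for a low p could hardly change direction in refits of largely the same samples, so the 0 says little about robustness. For 36 results every alternative gave the same call. Of the members with an unadjusted p of 0.05 or more, 1 passed under an alternative: Tlr9 against naïve without Vehicle replicate 3 (log2 fold change -0.23, adjusted p = 0.0185). The number of members past the threshold when 1 sample was left out ranged from 8 to 10 for Vehicle against naïve, from 2 to 5 for anti-PD-1 against Vehicle, from 7 to 8 for the combination against Vehicle and from 5 to 7 for the combination against 7aaRGD. For 7aaRGD against Vehicle in GL261 gliomas at 21 DPI it ranged from 0 to 1, and it was 0 throughout for the other comparisons. Of these counts, 3 moved by over 1.5 times: 1 for 7aaRGD without Vehicle replicate 3, 3 for anti-PD-1 without its replicate 1 and 2 without its replicate 2. These fits had fewer samples. Depth is unknown and its limits could not be given.

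With the replicate number as a block, 2 of 43 results on members lost their call and 0 gained one: Tlr5 with anti-PD-1 (log2 fold change 0.27, adjusted p = 0.0784) and Tlr8 in the combination against 7aaRGD (0.33, adjusted p = 0.0830). Deviations of same-numbered samples from their group means correlated above 0.1 in 1 of 9 pairs at 21 DPI and 3 of 19 pairs at 28 DPI. The correlations ran from -0.774 to 0.123 at 21 DPI and from -0.499 to 0.366 at 28 DPI. With so few samples per group, these values cannot show whether same-numbered samples were processed together. For the U87-MG samples, no paired analysis was possible because the columns carry no replicate numbers.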
